A study of Mus musculus with 20 samples.

Results

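Genes encoding transcription factors and cofactors of blood stem cell, erythroid and megakaryocyte fate were followed in sorted mouse bone marrow cells. They are Gata1, Gata2, Zfpm1, Tal1, Lyl1, Lmo2, Klf1, Gfi1b, Fli1 and Runx1, taken by symbol from both deposited count tables. These are 10 of the 49568 genes listed, and all 10 passed the filter on low counts in every comparison. The 20 libraries fall into 4 groups of 5: multipotent progenitors (MPP) of mice labelled AHR KO (called Ahr-KO MPP here), WT MPP, long-term haematopoietic stem cells of AHR KO mice (Ahr-KO LT-HSC) and WT LT-HSC. All mice were 8 to 12 weeks old and untreated, the strain is given as C57BL/6 for every library, and the cells were sorted by flow cytometry. The allele of the knockout, the sorting gates and the number of animals behind a library are not given in the labels, so p-values measure only the spread between these libraries, which may be technical. The question stated for the series is which target genes of the aryl hydrocarbon receptor, a ligand-activated transcription factor encoded by Ahr, act on stem cell function and proliferation.

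GATA factors are zinc finger proteins that bind the DNA word GATA. Gata2 acts in stem cells and early progenitors, and Gata1 acts in erythroid, megakaryocyte and mast cells. In erythroid cells Gata1 takes the place of Gata2 on many shared sites, a hand-over known as the GATA switch. Zfpm1 encodes FOG1, the cofactor through which Gata1 acts on many of its targets. Tal1 and its close relative Lyl1 encode helix-loop-helix proteins that join GATA factors in 1 complex through the bridging protein encoded by Lmo2. Klf1 activates erythroid genes, Gfi1b represses genes in erythroid and megakaryocyte precursors, Fli1 is an ETS factor of stem cells and megakaryocytes, and Runx1 is the DNA-binding part of core binding factor.

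Promoter windows are shown because GATA proteins are known to act on several of these genes, and the windows let the 2 GATA genes be set beside the genes with a GATA word near their start. RefSeq (GRCm38.p6) gave 11 promoters for 8 of the 10 genes. The 250 bases before each start were searched on both strands for the word AGATAA, the word TGATAA, the word AGATAG and the word TGATAG, which 26.5% of the 32851 promoters of the same length hold in at least 1 of these forms. Such a form was found in 3 of the 11 windows. It lay 114 bases before the start in Gfi1b, 199 in the first Tal1 promoter and 74 in Klf1, and none of these letters were found in the windows of Gata1, Gata2, Zfpm1, Lyl1 and Runx1. The word CAGNTG, the binding word of helix-loop-helix factors, was found in the windows of Lyl1, Klf1 and Runx1 (44.8% of all promoters), and CGGAAG, an ETS word, in those of Lyl1 and Zfpm1 (13.6%). TGTGGT, the word of Runx1, was found in that of Klf1 (14.0%), and CCACACCC, the word of Klf1, in none (3.2%). CAGNTG does not overlap the GATA word in the Klf1 window. A match of letters is a description of the sequence and shows no binding. The sequences run 5′ to 3′ on the strand of the gene, with the GATA word of either strand in capitals. The Klf1 window is printed up to the first base that GENCODE places in an exon.
Gfi1b, chr2:28621983-28622232, minus strand: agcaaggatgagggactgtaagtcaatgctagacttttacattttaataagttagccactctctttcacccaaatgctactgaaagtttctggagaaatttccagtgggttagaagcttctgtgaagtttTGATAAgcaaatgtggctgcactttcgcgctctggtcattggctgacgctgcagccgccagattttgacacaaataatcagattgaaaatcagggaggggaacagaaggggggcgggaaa
Klf1, chr8:84901732-84901927, plus strand: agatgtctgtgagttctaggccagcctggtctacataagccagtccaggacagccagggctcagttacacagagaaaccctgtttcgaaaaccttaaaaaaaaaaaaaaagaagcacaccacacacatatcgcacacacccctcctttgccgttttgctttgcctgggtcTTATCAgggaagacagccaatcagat
Tal1, first promoter, chr4:115056176-115056425, plus strand: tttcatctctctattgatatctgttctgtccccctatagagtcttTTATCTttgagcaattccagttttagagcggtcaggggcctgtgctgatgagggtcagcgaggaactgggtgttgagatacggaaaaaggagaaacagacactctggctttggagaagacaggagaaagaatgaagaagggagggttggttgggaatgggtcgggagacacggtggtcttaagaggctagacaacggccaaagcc
Gata2, first promoter, chr6:88193641-88193890, plus strand: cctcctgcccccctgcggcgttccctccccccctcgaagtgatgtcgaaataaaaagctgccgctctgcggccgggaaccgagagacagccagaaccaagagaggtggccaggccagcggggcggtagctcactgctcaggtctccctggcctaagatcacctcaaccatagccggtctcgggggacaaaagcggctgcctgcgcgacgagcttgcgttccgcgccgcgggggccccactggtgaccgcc
Gata1, chrX:7967911-7968160, minus strand: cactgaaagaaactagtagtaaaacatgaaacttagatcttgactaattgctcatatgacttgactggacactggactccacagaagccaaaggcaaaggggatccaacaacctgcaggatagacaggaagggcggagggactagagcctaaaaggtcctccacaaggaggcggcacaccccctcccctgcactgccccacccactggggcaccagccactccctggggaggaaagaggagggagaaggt

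Libraries held 13712668 to 21622653 counts. Levels are given in CPM, counts scaled to the size of the library with TMM factors (trimmed mean of M values), in the order of the library numbers in the labels, which run 1, 2, 3, 4 and 7 in Ahr-KO LT-HSC, 1, 4, 5, 6 and 8 in WT LT-HSC, and 1 to 5 in each MPP group. The sorts were checked against markers. Of 20 LT-HSC markers 19 were lower in Ahr-KO MPP than in Ahr-KO LT-HSC and 18 in WT MPP than in WT LT-HSC, and of 12 MPP markers 10 and 11 were higher (edgeR, adjusted p under 0.05). A list of B cell genes summed to 2775 to 11400 CPM in Ahr-KO MPP and 9330 to 48430 CPM in WT MPP, highest in library 3. In Ahr-KO and WT LT-HSC it summed to 57.7 to 2096 and 55.8 to 1019 CPM. A neutrophil list summed to 3264 to 12050 CPM in Ahr-KO MPP and 6014 to 9366 CPM in WT MPP. In Ahr-KO and WT LT-HSC it summed to 138 to 3586 and 94.2 to 1446 CPM. The part of other cells in the differences between MPP and LT-HSC was not tested. Ahr averaged 15.9 ± 3.91 CPM in Ahr-KO MPP, against 9.8 ± 3.66 CPM in WT MPP, with no call between them (adjusted p = 0.663, edgeR). In LT-HSC it averaged 23.5 ± 4.14 CPM in Ahr-KO LT-HSC, against 26.5 ± 6.35 CPM in WT LT-HSC (adjusted p = 0.861, edgeR). Since the deleted part of the gene is not given, these counts do not check the genotype, and groups are named as labelled. Xist, the transcript of the inactive X chromosome, read 19.2 to 260 CPM in the 20 libraries and the 4 Y-linked genes at most 0.424 CPM.

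Of the 10 LT-HSC libraries 3 stood apart. WT LT-HSC library 1 had 0.386% mitochondrial counts, against 1.07% to 1.65% in the other 9 LT-HSC libraries. It lay above all 9 for 32.5% of the 16065 genes tested and below all 9 for 34.2%, and its ratio to its group fell with exon length across 11555 genes (Spearman's rho = -0.443, a correlation across genes, which are not independent). In the other 19 libraries rho ran from -0.393 in WT MPP library 5 to 0.359 in Ahr-KO MPP library 5, with -0.268 in Ahr-KO MPP library 2. In WT LT-HSC library 1 the 5 factor genes with the shortest exon totals all lay above the median of the other 4 WT libraries, at 2.55 times for Lyl1, 1.81 for Klf1, 1.74 for Gfi1b, 1.57 for Gata1 and 1.41 for Lmo2, and the longest, Runx1, lay at 0.415 times. Ahr-KO LT-HSC libraries 2 and 3 were the other pair. They lay above all 8 other LT-HSC libraries for 25 of 29 erythroid genes and 16 of 16 neutrophil genes, against 5.3% of all genes tested, and for 5 of 9 B cell genes. They lay below all 8 for 9 of 20 LT-HSC markers and for 4 of the 10 factor genes, Gata2, Lyl1, Lmo2 and Fli1, against 4.75% of all genes tested. The erythroid list summed to 6124 and 6468 CPM in them and 3150 to 4930 CPM in the other 8, and the neutrophil list to 3464 and 3586 CPM and 94.2 to 1446 CPM. The alpha-globin gene Hba-a1 read 649 and 794 CPM in them and 6.72 to 532 CPM in the other 8, and the neutrophil granule gene Ltf 125 and 263 CPM and 0.143 to 1.04 CPM. Ahr-KO LT-HSC library 3 also held 4373 CPM of stromal genes, against at most 188.7 CPM in the other 9. The part of these signals in the results below was not tested. In bulk RNA, fewer cells of a type and less RNA per cell cannot be told apart.

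**Figure D1:**
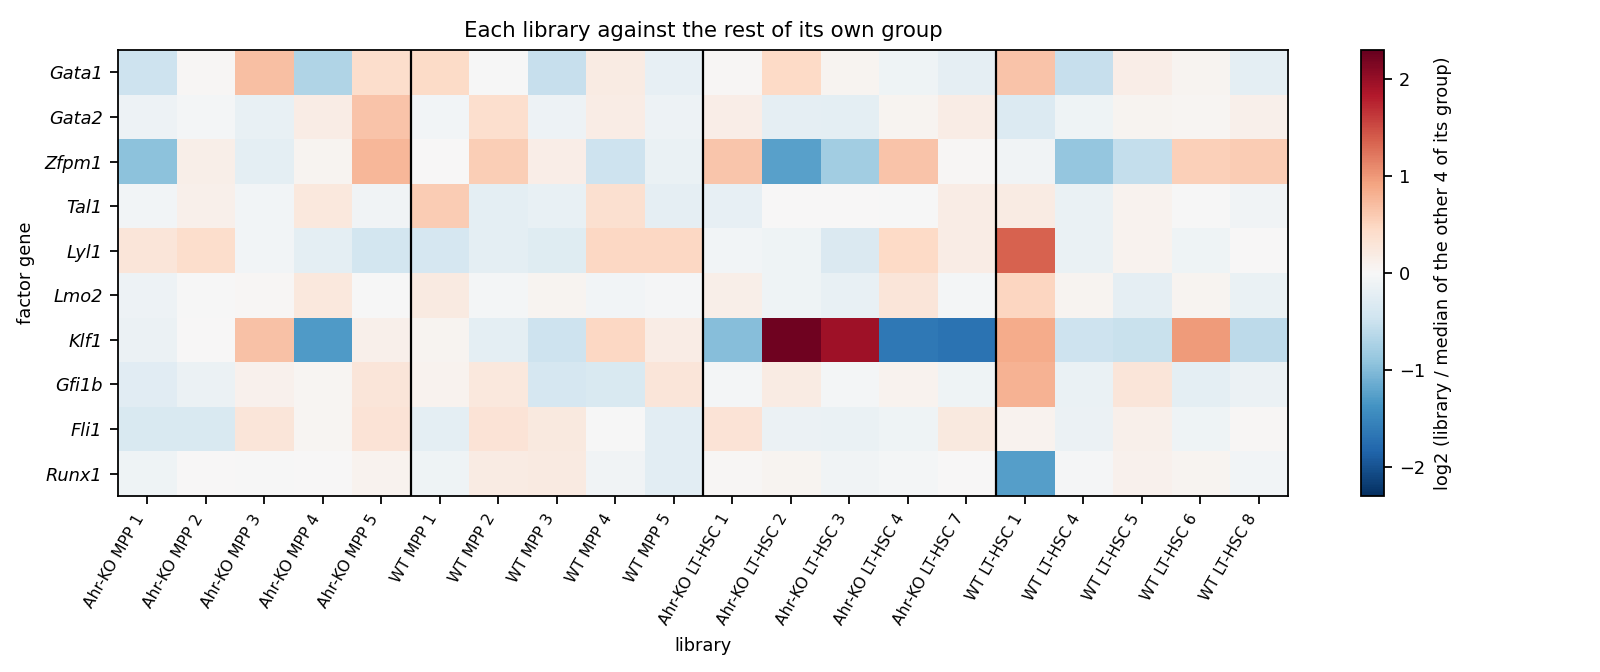
Rows are the 10 factor genes and columns the 20 libraries, and colour gives the log2 ratio of a library to the median of the other 4 of its group. The highest ratios are those of Klf1 in Ahr-KO LT-HSC libraries 2 and 3 (4.72 and 3.88 times), and in WT LT-HSC library 1 Lyl1 stands at 2.55 times and Runx1 at 0.415 times.

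The step between the 2 cell populations carried most of the calls. In Ahr-KO mice, 6 of the 10 factor genes were lower in MPP than in LT-HSC: Gata1, Gata2, Zfpm1, Tal1, Gfi1b and Fli1. None was higher, and 23.2% of the 17416 genes tested were called, 10.7% as lower. In WT mice, 6 of the 10 were lower in MPP: Gata2, Zfpm1, Tal1, Lmo2, Gfi1b and Fli1. None was higher there either, and 22.3% of all genes were called, 11.3% as lower. The call is an adjusted p under 0.05 in edgeR's quasi-likelihood test, adjusted over every gene tested by Benjamini and Hochberg's method, from 1 fit of the 20 libraries, so both counts share 1 estimate of the spread. The median log2 fold change of the 10 genes was -0.72 in Ahr-KO and -0.57 in WT mice, beside 0.011 and 0.012 over all genes. At an unadjusted p under 0.05 the counts were also 6 of the 10 in each, beside 34.2% of all genes in Ahr-KO and 33.6% in WT mice. The libraries of MPP and LT-HSC did not overlap for 6 of the 10 genes in Ahr-KO mice (21.5% of all genes) and for 5 of the 10 in WT mice (16.4%). DESeq2 called the same number, 6 in each genotype, and limma voom 7 in each. Over all genes limma voom called 6505 in WT mice, against 3876 by edgeR. The shares of all genes called by DESeq2, and by limma voom in Ahr-KO mice, are not given here. Without WT LT-HSC library 1, edgeR called 7 in each genotype, beside 32.2% of all genes in Ahr-KO and 29.9% in WT mice. Without Ahr-KO LT-HSC libraries 2 and 3 it called 5 in Ahr-KO mice, beside 18.9% of all genes. Without all 3 libraries it called 8 in each, 1 of the WT calls being higher in MPP. All genes then stood at 28.4% called in Ahr-KO and 29% in WT mice. The LT-HSC and MPP counts were deposited as 2 tables, so anything that differed between the tables and the population difference cannot be told apart.

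Between genotypes edgeR called no factor gene with all libraries. In MPP, edgeR called 0 of the 10 between Ahr-KO and WT mice, where 0.0311% of 16077 genes were called, 0.0187% as higher and 0.0124% as lower. Of the 10, 1 gene, Gfi1b, had an unadjusted p under 0.05, as had 6.62% of all genes. DESeq2 called that 1 gene and limma voom 0, where DESeq2 called 50 and limma voom 8 of all genes, against 5 by edgeR. In LT-HSC, edgeR also called 0 of the 10 between Ahr-KO and WT mice, where 0.00622% of 16065 genes were called. There 1 gene, Gata1, had an unadjusted p under 0.05, as had 8.85% of all genes. In LT-HSC limma voom called that 1 gene and DESeq2 0, where limma voom called 264 and DESeq2 149 of all genes, against 1 by edgeR. Libraries did not overlap for 1 of the 10 genes in MPP (1.17% of all genes) and for 0 of the 10 in LT-HSC (3.63%). The difference between the Ahr-KO effect in MPP and that in LT-HSC was called for 0 of the 10 by edgeR, DESeq2 and limma voom. Over all genes edgeR called 0% of 17416, DESeq2 51 genes and limma voom 17. Klf1 and Gfi1b had an unadjusted p under 0.05 in that test, as had 6.46% of all genes.

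**Figure D2:**
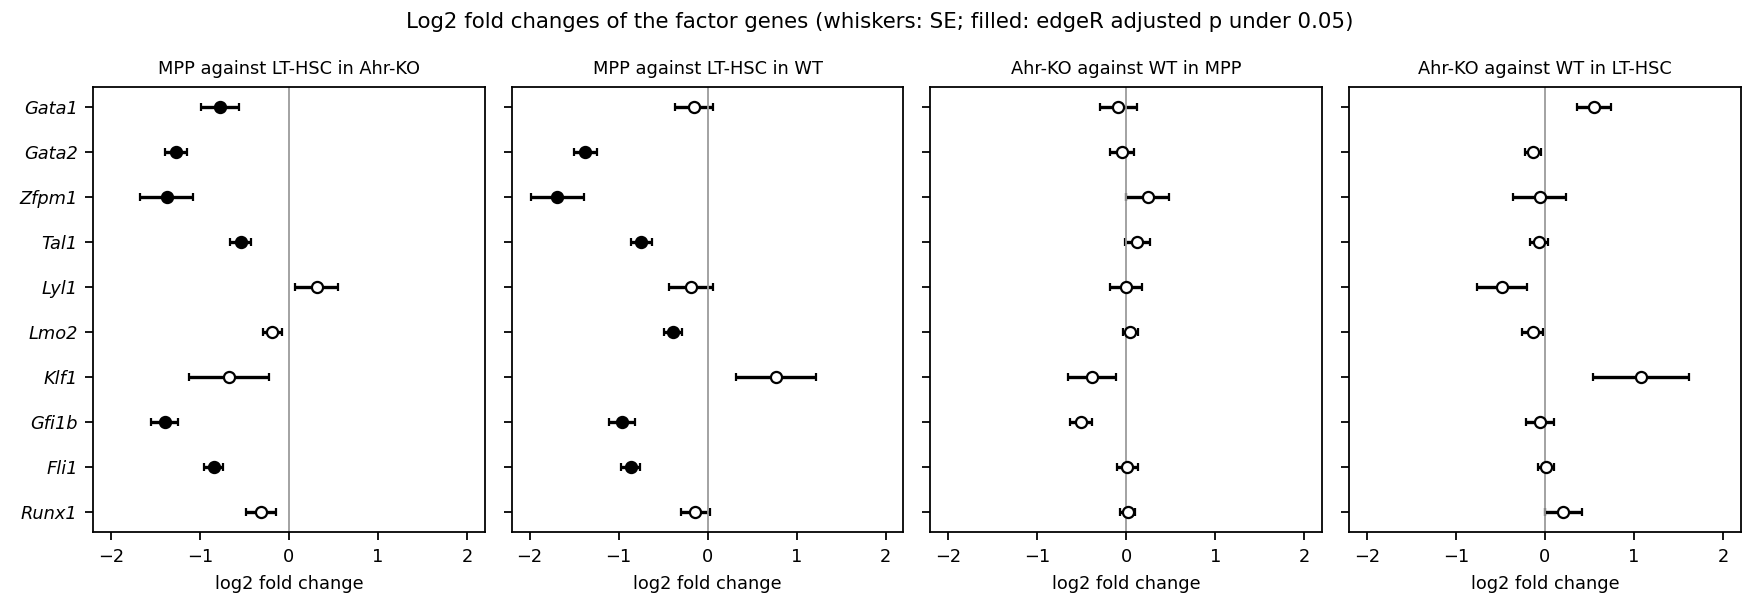
Points are log2 fold changes (x axis) of the 10 factor genes (y axis) in the 4 comparisons, with whiskers of 1 SE, filled where edgeR's adjusted p was under 0.05. The 6 filled points of each left-hand panel all lie below 0, and the 2 right-hand panels hold no filled point.

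Gata2, the GATA factor of stem cells (ENSMUSG00000015053, chr6:88193891-88207032, plus strand, GRCm38), had the largest share of variance between populations among the 10 genes. In MPP the Ahr-KO libraries read 158, 163, 152, 179 and 251 CPM and the WT libraries 174, 225, 169.9, 194 and 169 CPM. In LT-HSC the Ahr-KO libraries read 467, 396, 391, 449 and 478 CPM and the WT libraries 406, 470.1, 508, 503 and 528 CPM. All 10 MPP libraries lay below all 10 LT-HSC libraries, and the genotypes overlapped in both populations. Gata2 averaged 181 ± 40.7 CPM in Ahr-KO MPP and 436 ± 40.2 CPM in Ahr-KO LT-HSC (SD, n = 5 each), 2.41 times lower in MPP (log2 fold change -1.27 ± 0.13 (SE), adjusted p = 6.91e-07, edgeR). It averaged 186 ± 23.8 CPM in WT MPP and 483 ± 48.1 CPM in WT LT-HSC, 2.59 times lower in MPP (log2 fold change -1.37 ± 0.13 (SE), adjusted p = 2.92e-07, edgeR). Ahr-KO against WT gave a log2 fold change of -0.049 ± 0.14 in MPP (adjusted p = 0.96, edgeR) and -0.13 ± 0.093 in LT-HSC (adjusted p = 0.726, edgeR). Of its variance over the 20 libraries, on the log2 CPM scale, 92.8% lay between populations, against a median of 15.4% over all genes.

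Gata1, the erythroid and megakaryocyte GATA factor (ENSMUSG00000031162, chrX:7959260-7978071, minus strand), was lower in MPP than in LT-HSC in Ahr-KO mice. The Ahr-KO MPP libraries held 29.3, 37.4, 53.6, 25.1 and 44 CPM and the WT MPP libraries 52.3, 40, 28.9, 43.8 and 36.7 CPM. The Ahr-KO LT-HSC libraries held 62.7, 84.2, 63.4, 59.1 and 54.8 CPM and the WT LT-HSC libraries 64.7, 31.2, 45.7, 44.3 and 38.3 CPM. All 5 Ahr-KO MPP libraries lay below all 5 Ahr-KO LT-HSC libraries, the nearest pair at 53.6 and 54.8 CPM, and WT MPP overlapped WT LT-HSC. Gata1 averaged 37.9 ± 11.4 CPM in Ahr-KO MPP and 64.8 ± 11.3 CPM in Ahr-KO LT-HSC (log2 fold change -0.78 ± 0.21 (SE), adjusted p = 0.0116, edgeR). Without Ahr-KO LT-HSC libraries 2 and 3 this was -0.67 ± 0.24 with an adjusted p of 0.0619 (edgeR). In WT mice it averaged 40.4 ± 8.62 CPM in MPP and 44.8 ± 12.5 CPM in LT-HSC (log2 fold change -0.15 ± 0.21 (SE), adjusted p = 0.676, edgeR), and 0.017 ± 0.20 without WT LT-HSC library 1.

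Between genotypes in LT-HSC, 4 of the 5 WT libraries held less Gata1 than any Ahr-KO library, and WT library 1, at 64.7 CPM, held more than 4 of the 5 Ahr-KO libraries. The log2 fold change of Ahr-KO against WT was 0.55 ± 0.19 with an adjusted p of 0.509 (edgeR), which is no call. Without WT LT-HSC library 1 Gata1 was called higher in Ahr-KO LT-HSC (0.72 ± 0.14, adjusted p = 0.0394, edgeR), as it was by limma voom with sample quality weights (0.77 ± 0.14, adjusted p = 0.0261). Without Ahr-KO LT-HSC libraries 2 and 3 it was 0.40 ± 0.22 (adjusted p = 0.999, edgeR), and without all 3 libraries 0.56 ± 0.13 (adjusted p = 0.107, edgeR). Over all alternatives the value ran between 0.40 and 0.77, with adjusted p between 0.0261 and 0.9997. In MPP the log2 fold change was -0.09 ± 0.21 (adjusted p = 0.952, edgeR), and the difference between the effects in MPP and LT-HSC was -0.62 ± 0.30 (adjusted p = 0.77, edgeR).

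Zfpm1, the gene of the GATA1 cofactor FOG1 (ENSMUSG00000049577, chr8:122282141-122337251, plus strand), fell in MPP in both genotypes and varied widely among libraries of a group. Zfpm1 read 33.5, 65.3, 55.3, 63.5 and 101 CPM in the Ahr-KO MPP libraries and 52.2, 74.3, 55.7, 38.6 and 48.2 CPM in the WT MPP libraries. It read 225, 83.9, 115, 228 and 173 CPM in the Ahr-KO LT-HSC libraries and 172, 106, 136, 225 and 229 CPM in the WT LT-HSC libraries. WT MPP did not overlap WT LT-HSC, whereas Ahr-KO MPP library 5, at 101 CPM, passed Ahr-KO LT-HSC library 2, at 83.9 CPM. Zfpm1 averaged 63.7 ± 24.4 CPM in Ahr-KO MPP and 165 ± 64.6 CPM in Ahr-KO LT-HSC, 2.59 times lower in MPP (log2 fold change -1.37 ± 0.30 (SE), adjusted p = 0.00222, edgeR). In WT mice it averaged 53.8 ± 13.1 CPM in MPP and 174 ± 54 CPM in LT-HSC, 3.22 times lower in MPP (log2 fold change -1.69 ± 0.30 (SE), adjusted p = 0.000424, edgeR). For genotype, Ahr-KO against WT, the log2 fold change was 0.24 ± 0.24 in MPP (adjusted p = 0.876, edgeR). In LT-HSC it was -0.061 ± 0.30 (adjusted p = 0.977, edgeR), and 0.27 ± 0.25 without Ahr-KO libraries 2 and 3, the 2 lowest Ahr-KO libraries for Zfpm1.

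**Figure D3:**
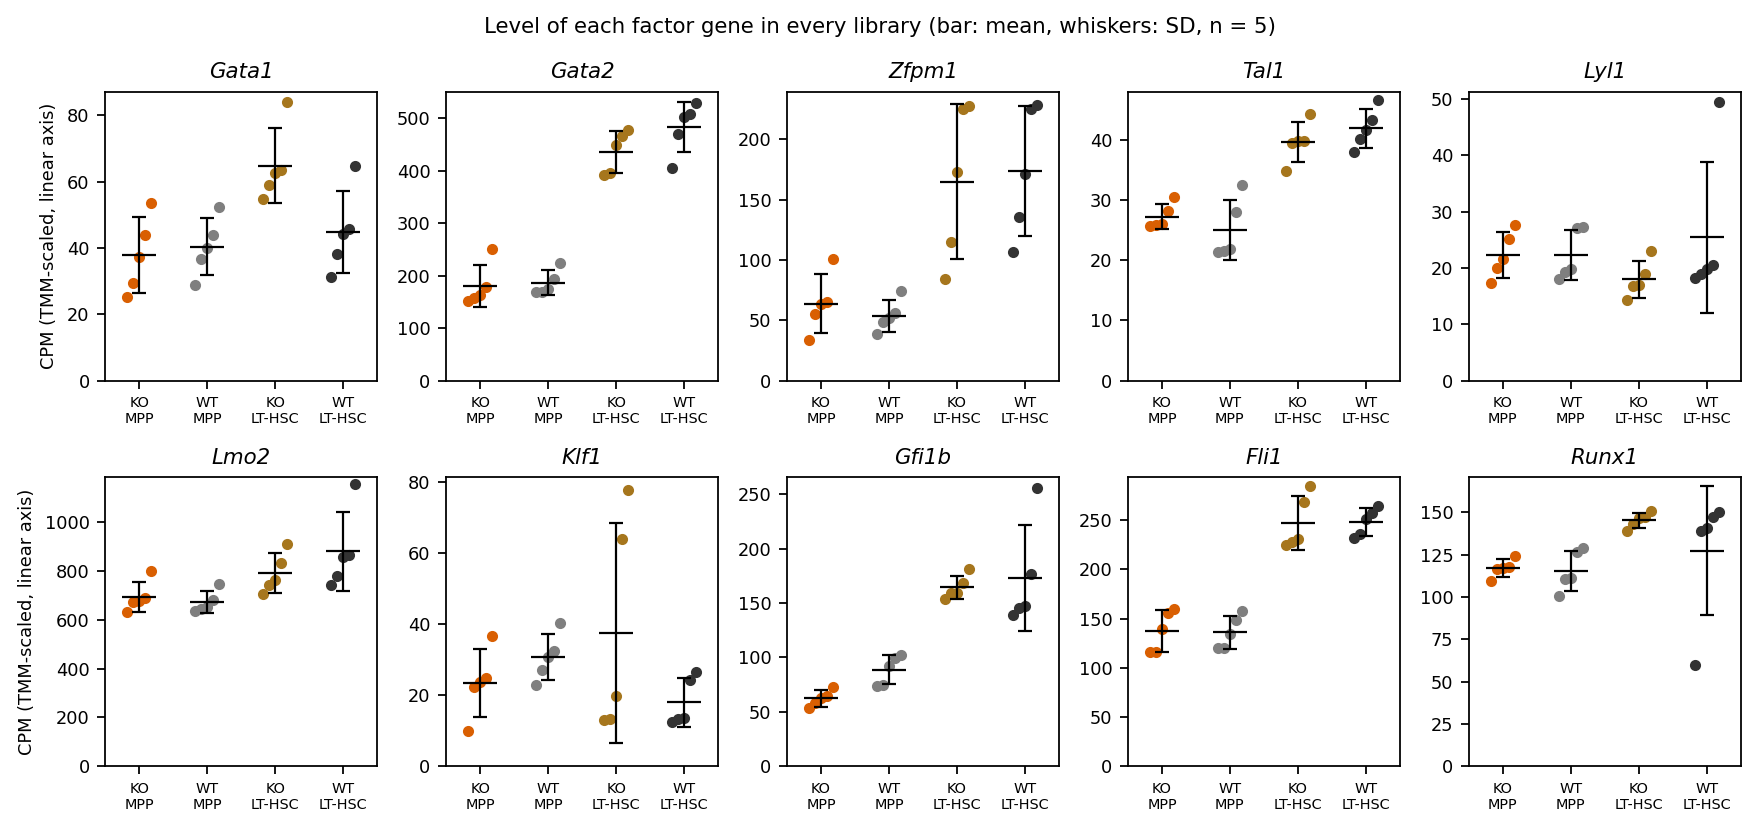
Each panel plots the CPM of 1 gene (linear y axis from 0) in the 20 libraries by group, points being libraries and the bar with whiskers the mean and SD of 5. MPP and LT-HSC libraries are fully apart for Gata2, Tal1, Gfi1b and Fli1. In Ahr-KO LT-HSC the 2 libraries highest for Klf1 read 63.9 and 77.8 CPM.

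Tal1, the helix-loop-helix partner of GATA factors (ENSMUSG00000028717, chr4:115056426-115071755, plus strand), fell in MPP in both genotypes at a low level. In MPP the Ahr-KO libraries read 25.8, 28.1, 26, 30.4 and 25.7 CPM and the WT libraries 32.4, 21.3, 21.9, 27.9 and 21.5 CPM. In LT-HSC the Ahr-KO libraries read 34.8, 39.7, 39.8, 39.5 and 44.3 CPM and the WT libraries 46.7, 38, 43.3, 41.6 and 40.1 CPM. All 10 MPP libraries lay below all 10 LT-HSC libraries, the nearest pair at 32.4 CPM in WT MPP library 1 and 34.8 CPM in Ahr-KO LT-HSC library 1. Tal1 was 1.46 times lower in MPP in Ahr-KO mice (log2 fold change -0.54 ± 0.12 (SE), adjusted p = 0.00227, edgeR) and 1.68 times lower in WT mice (log2 fold change -0.75 ± 0.12 (SE), adjusted p = 0.000134, edgeR). Between Ahr-KO and WT the log2 fold change was 0.12 ± 0.14 in MPP (adjusted p = 0.889, edgeR) and -0.066 ± 0.099 in LT-HSC (adjusted p = 0.897, edgeR).

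Lyl1, the close relative of Tal1 (ENSMUSG00000034041, chr8:84701457-84704715, plus strand), was not called by edgeR with all libraries. The Ahr-KO MPP libraries held 25.1, 27.7, 21.5, 20 and 17.4 CPM and the WT MPP libraries 18.1, 19.9, 19.3, 27.2 and 27.2 CPM. The Ahr-KO LT-HSC libraries held 17, 16.8, 14.2, 23.1 and 18.9 CPM and the WT LT-HSC libraries 49.4, 18.3, 20.6, 19 and 19.8 CPM. Apart from WT LT-HSC library 1, at 49.4 CPM, the groups overlapped. The log2 fold change of MPP against LT-HSC was 0.31 ± 0.24 in Ahr-KO mice (adjusted p = 0.401, edgeR) and -0.19 ± 0.24 in WT mice (adjusted p = 0.651, edgeR), and the WT value was 0.20 ± 0.16 without WT LT-HSC library 1. Between Ahr-KO and WT it was -0.0011 ± 0.18 in MPP (adjusted p = 0.999, edgeR) and -0.48 ± 0.28 in LT-HSC (adjusted p = 0.664, edgeR), and -0.096 ± 0.13 in LT-HSC without WT library 1. Its exons share 4 bases with those of Nfix on the opposite strand, and whether the counts used strand is not given in the sources used here.

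Lmo2, which encodes the bridge between Tal1 and the GATA factors (ENSMUSG00000032698, chr2:103957986-103981878, plus strand), fell in MPP in WT mice. Lmo2 read 632, 675, 689, 798 and 676 CPM in the Ahr-KO MPP libraries and 745, 645, 681, 635 and 651 CPM in the WT MPP libraries. It read 831, 743, 706, 910.4 and 764 CPM in the Ahr-KO LT-HSC libraries and 1157, 858, 743, 863 and 779 CPM in the WT LT-HSC libraries. In WT mice 4 of the 5 MPP libraries lay below all 5 LT-HSC libraries, and in Ahr-KO mice 4 of 5 did. Lmo2 averaged 671 ± 44.7 CPM in WT MPP and 880 ± 163 CPM in WT LT-HSC (log2 fold change -0.39 ± 0.11 (SE), adjusted p = 0.0115, edgeR). In Ahr-KO mice it averaged 694 ± 62 CPM in MPP and 791 ± 80.9 CPM in LT-HSC (log2 fold change -0.19 ± 0.11 (SE), adjusted p = 0.224, edgeR). Without the 3 LT-HSC libraries that stood apart it was called there too (-0.27 ± 0.086, adjusted p = 0.026, edgeR). With all libraries the difference between the genotypes was not called (0.20 ± 0.15, adjusted p = 0.888, edgeR), and over all alternatives that difference ran from 0.0045 to 0.26. Ahr-KO against WT gave a log2 fold change of 0.046 ± 0.081 in MPP (adjusted p = 0.93, edgeR) and -0.14 ± 0.12 in LT-HSC (adjusted p = 0.783, edgeR). With 1 library left out the LT-HSC value ran from -0.20 to -0.023, nearest to 0 without WT library 1, and it was 0.042 without the 3 libraries.

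Klf1, the activator of globin and other red cell genes (ENSMUSG00000054191, chr8:84901928-84905291, plus strand), was not called by edgeR with all libraries, and its Ahr-KO LT-HSC libraries split. In MPP the Ahr-KO libraries read 22.3, 23.8, 36.6, 9.85 and 24.9 CPM and the WT libraries 30.9, 27.1, 22.8, 40.2 and 32.4 CPM. In LT-HSC the Ahr-KO libraries read 19.6, 77.8, 63.9, 13.3 and 12.9 CPM and the WT libraries 24.3, 13.5, 13.2, 26.6 and 12.4 CPM. Ahr-KO LT-HSC libraries 2 and 3 held 77.8 and 63.9 CPM, more than all other 18 libraries, and the remaining 3 Ahr-KO LT-HSC libraries lay between 12.9 and 19.6 CPM. In WT mice 4 of the 5 MPP libraries lay above all 5 LT-HSC libraries. The log2 fold change of MPP against LT-HSC was 0.77 ± 0.45 in WT mice (adjusted p = 0.244, edgeR), and without the 3 libraries that stood apart it was called (0.90 ± 0.30, adjusted p = 0.0308, edgeR). In Ahr-KO mice it was -0.67 ± 0.45 (adjusted p = 0.309, edgeR), and 0.59 ± 0.34 without Ahr-KO LT-HSC libraries 2 and 3.

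Between genotypes in LT-HSC the log2 fold change of Klf1 was 1.08 ± 0.54 (adjusted p = 0.585, edgeR), and it was -0.23 ± 0.32 (adjusted p = 0.999, edgeR) without Ahr-KO libraries 2 and 3, so the sign rests on these 2 libraries. They are also those with the high erythroid and neutrophil sums, and the part of other cells in the Klf1 values was not tested. In MPP the log2 fold change was -0.38 ± 0.27 (adjusted p = 0.843, edgeR). The difference between the effects in MPP and LT-HSC was -1.45 ± 0.63 (adjusted p = 0.756, edgeR), and -0.16 ± 0.44 without the 2 libraries.

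Gfi1b, the repressor that works with the histone demethylase LSD1 (ENSMUSG00000026815, chr2:28609450-28621982, minus strand), was the factor gene with the smallest p between genotypes in MPP. The Ahr-KO MPP libraries held 53.2, 58, 64.5, 63 and 73.2 CPM and the WT MPP libraries 92.3, 99.8, 73.8, 75.1 and 102 CPM. The Ahr-KO LT-HSC libraries held 159, 181, 159.5, 168 and 154 CPM and the WT LT-HSC libraries 255, 146, 177, 139 and 148 CPM. All 10 MPP libraries lay below all 10 LT-HSC libraries, and within MPP all 5 Ahr-KO libraries lay below all 5 WT libraries, the nearest pair at 73.2 CPM in Ahr-KO MPP and 73.8 CPM in WT MPP. Gfi1b was 2.63 times lower in MPP than in LT-HSC in Ahr-KO mice (log2 fold change -1.40 ± 0.15 (SE), adjusted p = 1.59e-06, edgeR) and 1.95 times lower in WT mice (log2 fold change -0.96 ± 0.15 (SE), adjusted p = 9.12e-05, edgeR). In MPP it averaged 62.4 ± 7.5 CPM in Ahr-KO mice and 88.7 ± 13.5 CPM in WT mice (SD, n = 5 each).

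The log2 fold change of Gfi1b in MPP, Ahr-KO against WT, was -0.51 ± 0.12 with an adjusted p of 0.502 (edgeR), which is no call; by p it ranked 38 among 16077 genes. DESeq2 called it (-0.50 ± 0.13, adjusted p = 0.0481), and over all alternatives the value ran from -0.57 to -0.45, with adjusted p between 0.0481 and 0.964. The erythroid list summed to 1819 to 2475 CPM in Ahr-KO MPP and 2021 to 3350 CPM in WT MPP, the megakaryocyte list to 1268 to 2003 and 1501 to 2041 CPM, and the B cell list to 2775 to 11400 and 9330 to 48430 CPM. The part of such cells in the Gfi1b values was not tested. In LT-HSC the log2 fold change was -0.058 ± 0.16 (adjusted p = 0.95, edgeR). The difference between the effects was -0.43 ± 0.21 (adjusted p = 0.77, edgeR).

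Fli1, the ETS factor of stem cells and megakaryocytes (ENSMUSG00000016087, chr9:32422204-32542861, minus strand), fell in MPP in both genotypes. Fli1 read 116, 116, 156, 139.8 and 159.9 CPM in the Ahr-KO MPP libraries and 120.5, 157, 149, 134 and 120 CPM in the WT MPP libraries. It read 285, 228, 224, 231 and 268 CPM in the Ahr-KO LT-HSC libraries and 258, 232, 264, 236 and 251 CPM in the WT LT-HSC libraries. All 10 MPP libraries lay below all 10 LT-HSC libraries and the genotypes overlapped. Fli1 was 1.80 times lower in MPP in Ahr-KO mice (log2 fold change -0.85 ± 0.11 (SE), adjusted p = 1.25e-05, edgeR) and 1.82 times lower in WT mice (log2 fold change -0.87 ± 0.11 (SE), adjusted p = 1.06e-05, edgeR). The difference between the genotypes was 0.018 ± 0.15 (adjusted p = 0.99, edgeR), which 2 SE bound to -0.29 and 0.32. For genotype, Ahr-KO against WT, the log2 fold change was 0.011 ± 0.12 in MPP (adjusted p = 0.99, edgeR) and 0.011 ± 0.088 in LT-HSC (adjusted p = 0.984, edgeR).

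Runx1, the DNA-binding subunit of core binding factor (ENSMUSG00000022952, chr16:92601466-92826149, minus strand), was not called by edgeR with all 20 libraries. In MPP the Ahr-KO libraries read 109, 117, 116, 118 and 124 CPM and the WT libraries 110.4, 126, 129, 111 and 100.4 CPM. In LT-HSC the Ahr-KO libraries read 147, 151, 139, 143 and 147 CPM and the WT libraries 59.8, 141, 150, 147 and 139 CPM. All 10 MPP libraries lay below 9 of the 10 LT-HSC libraries, and WT LT-HSC library 1, at 59.8 CPM, lay below all other libraries. The log2 fold change of MPP against LT-HSC was -0.31 ± 0.16 in Ahr-KO mice (adjusted p = 0.188, edgeR) and -0.14 ± 0.16 in WT mice (adjusted p = 0.607, edgeR). Without WT LT-HSC library 1 it was called in Ahr-KO mice (-0.32 ± 0.067, adjusted p = 0.00123, edgeR) and in WT mice (-0.32 ± 0.071, adjusted p = 0.00188, edgeR). The Ahr-KO libraries were the same in both fits, and each fit has 1 estimate of the spread for both genotypes. Between Ahr-KO and WT it was 0.016 ± 0.086 in MPP (adjusted p = 0.98, edgeR) and 0.21 ± 0.21 in LT-HSC (adjusted p = 0.827, edgeR), and 0.026 ± 0.053 in LT-HSC without WT library 1. Its exons share 106 bases with those of the antisense gene Gm26626, which read at most 0.351 CPM.

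Levels were set beside each other between genes per kilobase of exon, counting all annotated exon bases of a gene. The length of the transcript in use was not measured, so the order depends on this scaling. In CPM alone Tal1 averaged more than Lyl1 in every group. Lmo2 was the highest of the 10 in every group, at 320 ± 28.6 CPM per kb in Ahr-KO MPP, 310 ± 20.6 in WT MPP, 365 ± 37.3 in Ahr-KO LT-HSC and 406 ± 75.2 in WT LT-HSC (SD, n = 5 each). Tal1 was the lowest in every group, at 6.22 ± 0.471, 5.71 ± 1.14, 9.05 ± 0.764 and 9.58 ± 0.746 CPM per kb in the same order of groups. In LT-HSC, Gfi1b, Gata2 and Fli1 followed Lmo2, at 89.8 ± 5.81, 80.8 ± 7.45 and 70.9 ± 7.90 CPM per kb in Ahr-KO mice and 94.5 ± 26.4, 89.5 ± 8.91 and 71.2 ± 3.99 in WT mice, neighbours whose ranges overlapped. In MPP these 3 genes overlapped in Ahr-KO mice, between 28.3 and 46.5 CPM per kb, and in WT mice Gfi1b, at 40.3 to 56.0, overlapped both Fli1 and Gata2. Between these genes and Tal1, the order from high to low was Zfpm1, Gata1, Klf1, Lyl1, Runx1 in Ahr-KO MPP and Klf1, Gata1, Zfpm1, Lyl1, Runx1 in WT MPP. It was Zfpm1, Gata1, Klf1, Runx1, Lyl1 in Ahr-KO LT-HSC and Zfpm1, Gata1, Lyl1, Klf1, Runx1 in WT LT-HSC. Below Lmo2, the ranges of neighbours in the order overlapped except for Runx1 above Tal1 in both MPP groups, Gata2 above Klf1 in WT MPP, and Fli1 above Zfpm1 and Zfpm1 above Gata1 in WT LT-HSC.

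The ratio of Gata2 to Gata1, on the CPM per kb scale, had a median of 2.43 in Ahr-KO MPP (1.29 to 3.22), 2.08 in WT MPP (1.51 to 2.65), 3.36 in Ahr-KO LT-HSC (2.12 to 3.94) and 5.13 in WT LT-HSC (2.83 to 6.80). Of the WT LT-HSC libraries, 4 lay above all 5 Ahr-KO LT-HSC libraries and library 1, at 2.83, lay among them. The ratio of Tal1 to Lyl1 had medians of 0.496, 0.440, 0.961 and 0.855 in the same order of groups, with WT LT-HSC library 1 lowest of its group at 0.388. These ratios are a description and were not tested.

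**Figure D4:**
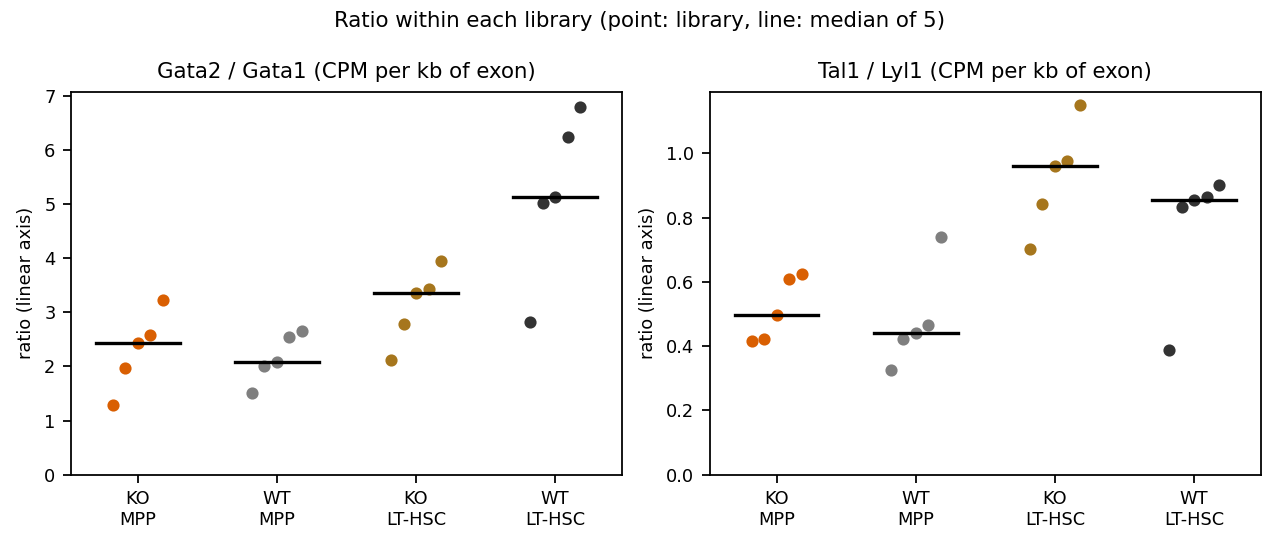
Points are the ratios of Gata2 to Gata1 and of Tal1 to Lyl1 in each library (CPM per kb of exon, linear y axis from 0) by group, and lines the medians of 5. In WT LT-HSC 4 of 5 points for Gata2 to Gata1 lie above 5, and the lowest is library 1 at 2.83.

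Genes whose levels followed 3 of the factors most closely were taken by the root-mean-square difference of centred log2 CPM over the 20 libraries, among 11873 genes of at least 5 CPM on average. For Gata2 these included Scarf1 (0.186), Tmem40 (0.187), Ptgs1 (0.191) and Rbpms2 (0.194), where the median gene stood at 0.765. For Gata1 they were Ccnd3 (0.263), Plin2 (0.282), Abhd5 (0.286), Dhcr7 (0.302) and Xpnpep1 (0.305), where the median was 0.548. For Klf1 they were Blvrb (0.374), Acp5 (0.432), Rflnb (0.441), Ctse (0.453) and Fcer1g (0.466), where the median was 0.835. Blvrb is itself on the erythroid list. Among the 10 factor genes the closest pairs were Tal1 and Lmo2 (0.255), Tal1 and Fli1 (0.267) and Gata2 and Fli1 (0.289), and the farthest was Zfpm1 and Klf1 (1.37). The libraries share the population difference, so the values are a description with no test.

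Partners of the factors were read from 28 genes of their complexes. In Ahr-KO mice 3 were higher and 3 lower in MPP than in LT-HSC (edgeR, 23.2% of all genes called). Cbfa2t3, the corepressor ETO2 of the Tal1 complex, averaged 118 ± 10.1 CPM in Ahr-KO MPP, against 188 ± 15.7 CPM in Ahr-KO LT-HSC (log2 fold change -0.67 ± 0.11 (SE), adjusted p = 0.000246). Zbtb7a, a repressor of globin genes, was lower (-0.36 ± 0.088, adjusted p = 0.00511, edgeR), and Lmo4, a LIM protein related to Lmo2, was higher (0.74 ± 0.19, adjusted p = 0.00685, edgeR). Neither was called in WT mice (-0.24 ± 0.088 and 0.47 ± 0.19, adjusted p = 0.0576 and 0.0783, edgeR). In WT mice 2 were higher and 4 lower (edgeR, 22.3% of all genes). Ldb1, which binds Lmo2, averaged 109 ± 3.62 CPM in WT MPP, against 149 ± 7.28 CPM in WT LT-HSC (log2 fold change -0.46 ± 0.072 (SE), adjusted p = 0.000122, edgeR). Cbfa2t3 was lower there too (-0.67 ± 0.11, adjusted p = 0.000252, edgeR), and Id2, an inhibitor of helix-loop-helix factors, was higher (1.46 ± 0.30, adjusted p = 0.00143, edgeR). In Ahr-KO mice Id2 was higher too (0.83 ± 0.30, adjusted p = 0.0479, edgeR) and Ldb1 was not called (-0.16 ± 0.072, adjusted p = 0.116, edgeR).

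Of 17 tested relatives of the factors, 3 were higher and 4 lower in MPP in Ahr-KO mice, and 3 higher and 4 lower in WT mice (edgeR, 23.2% of all genes called in Ahr-KO and 22.3% in WT mice). Gfi1, the close relative of Gfi1b, was higher in MPP, the direction opposite to Gfi1b: it averaged 57.8 ± 10.3 CPM in Ahr-KO MPP, against 11.4 ± 4.97 CPM in Ahr-KO LT-HSC (log2 fold change 2.34 ± 0.28 (SE), adjusted p = 6.66e-06, edgeR). In WT mice it averaged 58.6 ± 15.7 CPM in WT MPP, against 14 ± 3.4 CPM in WT LT-HSC (log2 fold change 2.07 ± 0.28 (SE), adjusted p = 2.44e-05, edgeR). Gata3, another GATA factor, was lower in MPP in Ahr-KO mice (-1.44 ± 0.16, adjusted p = 2.02e-06, edgeR) and in WT mice (-1.19 ± 0.16, adjusted p = 1.82e-05, edgeR). Ets2, an ETS factor as Fli1, was lower in both (-0.95 ± 0.17, adjusted p = 0.000341 in Ahr-KO and -1.31 ± 0.17, adjusted p = 1.43e-05 in WT, edgeR).

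Of 18 other stem cell factors 2 were higher and 10 lower in MPP in Ahr-KO mice, with a median log2 fold change of -0.72, and 2 higher and 12 lower in WT mice, with a median of -0.64 (edgeR). Over all genes 23.2% were called in Ahr-KO and 22.3% in WT mice, with medians of 0.011 and 0.012. Mycn, a factor of the Myc family, averaged 101 ± 12.8 CPM in Ahr-KO MPP, against 408 ± 64.2 CPM in Ahr-KO LT-HSC (log2 fold change -2.02 ± 0.12 (SE), adjusted p = 1.41e-09, edgeR). Mllt3 and the homeobox gene Nkx2-3 followed in Ahr-KO mice (-2.47 ± 0.16 and -1.54 ± 0.14, adjusted p = 2.72e-09 and 3.61e-07, edgeR). In WT mice the log2 fold changes were -2.01 ± 0.12 for Mycn, -2.55 ± 0.16 for Mllt3 and -1.69 ± 0.14 for Nkx2-3 (adjusted p = 1.27e-09, 1.6e-09 and 1.05e-07, edgeR).

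The lineages in which the factors act were read from 3 lists, of the erythroid, megakaryocyte and mast cell genes. Of 25 megakaryocyte and platelet genes tested, 16 were lower and 0 higher in MPP in Ahr-KO mice, with a median log2 fold change of -1.40, and 13 lower and 1 higher in WT mice, with a median of -0.83. Of all genes 10.7% were called lower in Ahr-KO and 11.3% in WT mice. Gp9, a platelet surface protein, was lower in MPP in Ahr-KO mice (-1.79 ± 0.19, adjusted p = 1.28e-06, edgeR) and in WT mice (-1.42 ± 0.19, adjusted p = 1.74e-05, edgeR). Serpina3g, a protease inhibitor, was also lower in both (-1.22 ± 0.16, adjusted p = 1.57e-05 in Ahr-KO and -1.39 ± 0.16, adjusted p = 4.11e-06 in WT, edgeR). Of 29 erythroid genes tested, 6 were lower and 0 higher in Ahr-KO MPP (median -0.87), and 4 lower and 0 higher in WT MPP, with a median of -0.0078. These are 20.7% and 13.8% of the list, beside 23.2% and 22.3% of all genes called. The Ahr-KO median rested on LT-HSC libraries 2 and 3: without them 6 erythroid genes were called higher and 4 lower, and the median was 1.06 (edgeR, 18.9% of all genes called). The WT counts moved in the same fit too, to 6 higher and 5 lower, with a median of -0.033 (edgeR, 20.4% of all genes called). Car2, a carbonic anhydrase, averaged 816 ± 166 CPM in Ahr-KO MPP, against 2020 ± 144 CPM in Ahr-KO LT-HSC (log2 fold change -1.31 ± 0.14 (SE), adjusted p = 1.62e-06, edgeR), and 991 ± 129.6 CPM in WT MPP, against 1965 ± 393 CPM in WT LT-HSC (log2 fold change -0.99 ± 0.14 (SE), adjusted p = 3.79e-05, edgeR).

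The erythropoietin receptor gene Epor and Hemgn, a nuclear protein of red cell precursors, were lower in Ahr-KO MPP (-1.43 ± 0.22 and -0.84 ± 0.17, adjusted p = 0.000101 and 0.00133, edgeR). Epor was lower in WT MPP too (-0.83 ± 0.22, adjusted p = 0.00956, edgeR), and Hemgn was not called there (-0.35 ± 0.17, adjusted p = 0.157, edgeR). Nfe2, a leucine zipper factor of platelets and red cells, and Tfr2, a transferrin receptor, were lower in WT MPP (-0.76 ± 0.12 and -0.53 ± 0.12, adjusted p = 0.000179 and 0.00262, edgeR). In Ahr-KO mice Nfe2 was lower (-0.57 ± 0.12, adjusted p = 0.0021, edgeR) and Tfr2 was not called (-0.22 ± 0.12, adjusted p = 0.2, edgeR). Of 15 mast cell and basophil genes, 13 passed the filter on low counts in the fit of the 20 libraries and 10 in LT-HSC alone, so that 3 passed only through MPP and no count of calls is given for this list. Cpa3, the mast cell carboxypeptidase, averaged 55.7 ± 12.8 CPM in Ahr-KO MPP, against 9.31 ± 5.78 CPM in Ahr-KO LT-HSC (log2 fold change 2.58 ± 0.39 (SE), adjusted p = 7.56e-05, edgeR), and 68.5 ± 10.7 CPM in WT MPP, against 8.85 ± 5.16 CPM in WT LT-HSC (log2 fold change 2.95 ± 0.40 (SE), adjusted p = 2.24e-05, edgeR). The protease genes Cma1 and Tpsb2 are among those that passed only through MPP, so no comparison of populations is drawn from them. Cma1 averaged 4.72 CPM in WT MPP (2.28 to 8.45) and 1.33 CPM in Ahr-KO MPP (0.504 to 2.35). Tpsb2 averaged 4.15 CPM in WT MPP (1.38 to 7.31) and 1.56 CPM in Ahr-KO MPP (0 to 4.35). The ranges of the genotypes overlapped for both genes. No gene of this list was called between genotypes in MPP (edgeR, 0.0311% of all genes called). Kit, of the same list, ran opposite to Cpa3. It averaged 956 ± 227 CPM in Ahr-KO MPP, against 1721 ± 181 CPM in Ahr-KO LT-HSC, and 959 ± 182 CPM in WT MPP, against 1574 ± 544 CPM in WT LT-HSC.

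**Figure D5:**
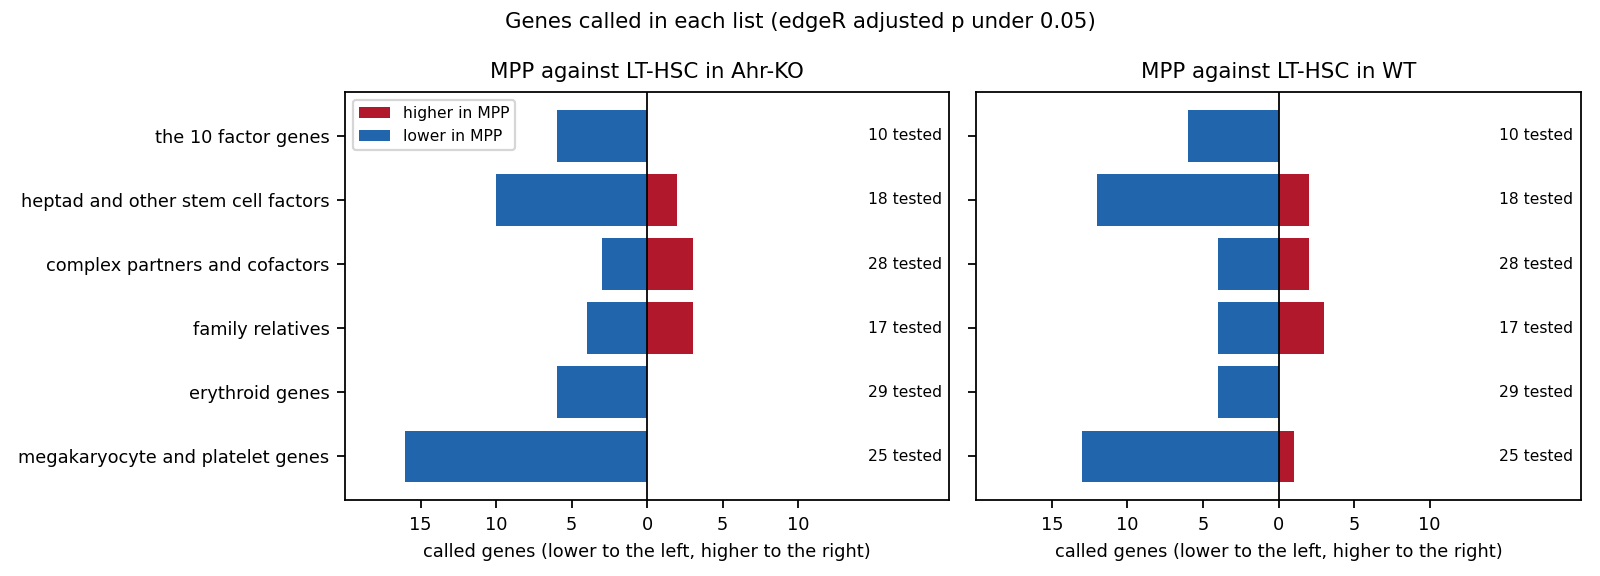
Bars count the genes of each list (y axis) called lower in MPP (blue, to the left) or higher in MPP (red, to the right) by edgeR, in Ahr-KO mice at left and WT mice at right, with the number of genes tested beside each. The megakaryocyte list has 16 and 13 genes lower, where 23.2% and 22.3% of all genes were called in either direction.

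Between genotypes edgeR gave 1 call in these lists with all libraries. In MPP, Pf4, the platelet chemokine platelet factor 4, averaged 50.4 ± 15.2 CPM in Ahr-KO MPP, against 117 ± 15.3 CPM in WT MPP (log2 fold change -1.22 ± 0.18 (SE), adjusted p = 0.0491, edgeR), the only call among 25 megakaryocyte genes, where 12 had an unadjusted p under 0.05. Over all genes 0.0311% were called and 6.62% had an unadjusted p under 0.05. DESeq2 called 2 of the 25 and limma voom 1, where DESeq2 called 50 and limma voom 8 of all genes in MPP. The call of Pf4 was lost in 12 of 17 alternatives, with adjusted p of 0.0334 to 0.191 when 1 library was left out. The median log2 fold change in MPP was -0.42 over the megakaryocyte list and -0.37 over the erythroid list, beside 0.0048 over all genes, and 25 of the 29 erythroid genes were below 0 with 0 called and 1 under an unadjusted p of 0.05. In LT-HSC no gene of the 6 lists was called by edgeR, and 27 of the 29 erythroid genes were above 0 with a median of 0.67. Without Ahr-KO LT-HSC libraries 2 and 3 the sign of this median turned, with 26 of the 29 below 0 and a median of -1.11, and without all 3 libraries it was -1.36. The smallest p of the stem cell factors there was that of Hoxa9, which averaged 50.6 ± 5.42 CPM in Ahr-KO LT-HSC, against 79.5 ± 21.5 CPM in WT LT-HSC (log2 fold change -0.64 ± 0.16 (SE), adjusted p = 0.421, edgeR), and DESeq2 and limma voom each called it. DESeq2 also called 2 megakaryocyte genes there, and the other 4 lists had 0 calls in both tools. Over all genes in LT-HSC DESeq2 called 149 and limma voom 264. The difference between the effects in MPP and LT-HSC was called for 0 genes of the 6 lists by edgeR, DESeq2 and limma voom.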

How the data were processed

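Gene counts per library were deposited as 2 tables, 1 for LT-HSC and 1 for MPP, of raw whole-number counts. Per the submitters' processing notes, Trimmomatic 0.36, STAR 2.5.2b, Subread 1.5.0p3 with featureCounts and DESeq2 1.12.4 were used with GRCm38.p5; no source used here gives the strand setting or the annotation. The protocol in the labels speaks of dendritic cell samples, 3 to a group, whereas 5 libraries to a group are analysed here.

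Counts were tested with edgeR 4.0.16 in R 4.3.3 (quasi-likelihood F test, robust, TMM factors, filterByExpr, Benjamini-Hochberg adjustment over all genes tested, threshold 0.05). Ahr-KO was set against WT within each population (10 libraries), and MPP against LT-HSC, and the difference of effects, in 1 fit of the 20 libraries. DESeq2 1.42.0 and limma voom 3.58.1 were alternatives. The fits were tested on simulated counts with the same spread for every gene and no outlying library. That does not test them on libraries such as those that stood apart. Gene spans and exon lengths came from GENCODE M21 (GRCm38). The 10 genes and the gene lists were chosen with earlier results of these data known. Besides the 10 genes, the text names from each list up to 3 called genes of smallest p (1 uncalled gene where there was no call), from lists of other cell types also the 2 highest by CPM, and for Gata1, Gata2 and Klf1 the 5 genes most like each; some genes that the rule takes are not reported here, and genes outside it were named after their values were seen. The deviations of libraries of different groups that share a number correlated at r of -0.177 to 0.179. Between Ahr-KO MPP and Ahr-KO LT-HSC r ran from 0.0147 to 0.179, and libraries 3 and 4 each correlated best with their own number. Between WT MPP and WT LT-HSC it ran from -0.0596 to 0.0301, with no such match. The labels tie no number to an animal, so numbers were not used as pairs. Whether same-numbered libraries share an animal cannot be told from these values.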

Additional observations from a re-analysis of the deposited data

Results flagged for a closer look

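Among the 40 groups of 5 values formed by the 10 genes and the 4 groups of libraries, 3 held a value far from the other 4, where the gap to the nearest value divided by the whole range passed Dixon's critical value of 0.71. Chance flags about 1 in 20 such groups. Gata2 read 251 CPM in Ahr-KO MPP library 5, against 152.5 to 179 CPM in the other 4 Ahr-KO MPP libraries. The ratio of that library to its group rose with exon length across genes (Spearman's rho = 0.359), the highest of the 20 libraries, and the part of this in the Gata2 value was not tested. Lyl1 read 49.4 CPM in WT LT-HSC library 1, against 18.3 to 20.6 CPM in the other 4 WT LT-HSC libraries. Runx1 read 59.8 CPM in WT LT-HSC library 1, against 138.6 to 150.0 CPM in the other 4. That library is also the one with 0.386% mitochondrial counts, and the part of this in the Lyl1 and Runx1 values was not tested.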

How the results depend on the processing

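Of the 1220 alternative values of the 10 genes' 50 values, 1130 kept their direction and their side of the threshold, 3 lost the call, 12 gained one and 75 turned round, over 21 of the 50 values. None of the 75 belonged to the 12 called values. For each comparison of MPP with LT-HSC the alternatives include 20 fits with 1 library left out. Some of these dropped a library of neither compared group, which hardly moves the fold change, so the share kept says less there. Values given by gene are log2 fold changes. The causes of the changes were not tested.

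Over all genes, the number called between Ahr-KO and WT in LT-HSC, 1 by edgeR, was 3 with DESeq2 size factors, 4 with no filter, 3 with a filter of 5 CPM, 149 by DESeq2, 264 by limma voom, 14 with 1 fit of all libraries, 32 without the 3 libraries that stood apart, and 0 to 203 with 1 library left out (203 without WT library 1). In MPP the 5 calls became 3 with DESeq2 size factors, 50 by DESeq2, 8 by limma voom and 0 to 4 with 1 library left out. Limma voom called 6505 genes between MPP and LT-HSC in WT mice, against 3876 by edgeR, and the difference of effects had 51 calls by DESeq2 and 17 by limma voom, against 0. Of the 10 genes, DESeq2 called 1 in MPP, limma voom 1 in LT-HSC, and 0 to 1 were called in LT-HSC with 1 library left out.

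Between Ahr-KO and WT in LT-HSC, Fli1 turned to -0.0017 with DESeq2 size factors and in DESeq2, to -0.0045 with 1 fit, and ran from -0.056 to 0.041 with 1 library left out. Gfi1b was 0.13 by limma voom and ran from -0.14 to 0.12, and Zfpm1 from -0.21 to 0.10. Without Ahr-KO libraries 2 and 3, Zfpm1 was 0.27, Klf1 -0.23 and Aqp1 -0.0023; without all 3 libraries Zfpm1 was 0.26, Lyl1 0.019, Lmo2 0.042, Klf1 -0.10, Gfi1b 0.074 and Aqp1 -0.13. In MPP, Lyl1 was 0.0025 with DESeq2 size factors, 0.0066 with the 5 CPM filter, 0.0011 in DESeq2, 0.034 by limma voom and 0.00030 with 1 fit, and limma voom gave Fli1 -0.079 and Runx1 -0.040. With 1 library left out in MPP, Fli1 ran from -0.043 to 0.069, Gata1 from -0.25 to 0.029, Gata2 from -0.19 to 0.028, Lmo2 from -0.0062 to 0.078, Lyl1 from -0.095 to 0.087 and Runx1 from -0.025 to 0.064.

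Between MPP and LT-HSC in WT mice, Lyl1 was 0.14 by limma voom, 0.20 without the 3 libraries and -0.30 to 0.20 with 1 left out, and Gata1 was 0.016 without the 3 and -0.28 to 0.017. In Ahr-KO mice, Klf1 was 0.59 without libraries 2 and 3 and 0.62 without all 3. For the difference of effects, limma voom gave Fli1 -0.084. Without libraries 2 and 3 Zfpm1 was -0.032 and Fli1 -0.072, and without all 3 Zfpm1 was -0.019, Lyl1 -0.021, Fli1 -0.076 and Runx1 0.0026. With 1 left out Fli1 ran from -0.063 to 0.063, Gata2 from -0.067 to 0.17 and Runx1 from -0.26 to 0.0057.

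The library numbers were not used as pairs. In 2 of 14 checks, both between Ahr-KO MPP and Ahr-KO LT-HSC, a sample correlated best with its own number. A fit with the replicate number as a block could use 4 LT-HSC libraries, 10 MPP libraries and 14 of all. With this replicate block, all genes called were 0 between genotypes in LT-HSC and 0 in MPP, 1483 between populations in WT and 2041 in Ahr-KO mice. In LT-HSC Gata2 was 0.071, Zfpm1 0.75 and Klf1 -0.16, in MPP Lyl1 was 0.0036, and the difference of effects for Gata2 was -0.036. Lmo2 in WT (adjusted p = 0.0555) and Tal1 in Ahr-KO mice (adjusted p = 0.0507) lost the edgeR call under the block.

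At 5 libraries a group the spread within LT-HSC limits the comparison of genotypes: the SEs of the 10 genes there ran from 0.088 for Fli1 to 0.54 for Klf1 on the log2 scale. The medians of the lists without the 3 libraries were computed after the data were seen.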
